A study of Mus musculus with 20 samples.

Results

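The differentiation time course of mouse embryonic stem cells held 41 genes that were higher at day 6 than at any other day sampled in both the scrambled and the hairpin A culture. A gene was taken when its FPKM (fragments per kilobase of transcript, scaled to library depth) at day 6 was at least 5 and its FPKM + 1 at day 6 was at least 2 times that at days 0, 3 and 9 of the same culture. Both the scrambled and the hairpin A culture had to meet this, the locus had to span at least 300 bp, and a fixed set of primitive streak, blood, Hox and Wnt symbols was left out. Of 22102 entries, 21460 were long enough and 21372 were not among the left-out symbols. Of the left-out symbols, 3 met the same thresholds, namely Cer1, Gsc and Lhx1. The members were thus selected on the FPKM of the scrambled and hairpin A libraries of all 4 days, so those values are given as a description and carry no test.

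E14 embryonic stem cells of strain 129/Ola made up the time course and carried a lentiviral short hairpin RNA, either scrambled or directed at the long noncoding RNA Braveheart (hairpin A or hairpin B). Every culture, the scrambled one included, had been transduced and selected with puromycin, was differentiated towards heart muscle and gave 1 library at each of days 0, 3, 6 and 9. A second set, the discovery libraries, held untreated lines: E14 and v6.5 embryonic stem cells (mESC, 2 libraries each), fibroblasts from mouse embryos (MEF, 1 library), partially reprogrammed fibroblasts (lines 11.3 and 11.5, 1 library each) and a fully reprogrammed line (miPS, 1 library). Both kinds of reprogrammed line had received Oct4, Sox2, c-myc and Klf4 by retrovirus. E14 is of strain 129/Ola and both mESC lines are wild type, whereas v6.5 and the other lines are of 129/svJae x C57BL/6. The MEF, partially reprogrammed and miPS lines carried Oct4-GFP. Embryonic stem cells and miPS cells were grown on irradiated fibroblasts that were removed by pre-plating, and lines 11.3 and 11.5 were grown without feeders. The labels describe both plain embryoid bodies and a directed protocol with VEGF, activin A and BMP4, and they do not say which of them gave these libraries. The level of the targeted RNA was not analysed here.

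When pluripotent cells leave their ground state, they pass through a stage that resembles gastrulation, in which mesoderm, endoderm and the organizer tissues of the embryo are set apart. Genes of such a passage are switched on for a short time and are then lost or kept in a few daughter cells. The anterior endoderm is known for Hhex and Hesx1 and for secreted antagonists of Wnt, and its cells form an epithelium rich in keratins 8 and 18. Cyp26a1, which breaks down retinoic acid, is known from the primitive streak, the tail end and the anterior neural plate, and its promoter is a textbook target of the retinoic acid receptors.

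The promoter of Cyp26a1 and those of the neighbouring keratin genes Krt8 and Krt18 are shown because these genes were high together at day 6. Cyp26a1 also held a pair of exact motif letters that few other genes held. These promoters are RefSeq windows of GRCm38.p6, a later build than the mm9 used for the expression tables. Each run holds the 250 bases before the transcription start, read along the gene. Capitals mark the letters of every motif searched, on either strand.
Cyp26a1: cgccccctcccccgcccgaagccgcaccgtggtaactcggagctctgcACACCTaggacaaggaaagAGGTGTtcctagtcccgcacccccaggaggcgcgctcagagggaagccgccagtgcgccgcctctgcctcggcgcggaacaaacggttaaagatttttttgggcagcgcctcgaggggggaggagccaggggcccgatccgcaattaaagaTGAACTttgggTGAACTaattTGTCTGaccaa
Krt8: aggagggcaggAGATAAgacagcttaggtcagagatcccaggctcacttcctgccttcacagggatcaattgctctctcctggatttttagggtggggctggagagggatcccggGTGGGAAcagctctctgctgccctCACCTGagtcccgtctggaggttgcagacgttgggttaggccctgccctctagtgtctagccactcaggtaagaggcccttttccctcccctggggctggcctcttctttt
Krt18: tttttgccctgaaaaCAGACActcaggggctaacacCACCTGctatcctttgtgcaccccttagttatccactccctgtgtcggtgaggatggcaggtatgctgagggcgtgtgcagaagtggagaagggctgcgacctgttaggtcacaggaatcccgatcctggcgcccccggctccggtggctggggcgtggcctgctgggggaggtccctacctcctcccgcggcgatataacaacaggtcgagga
The Cyp26a1 window lies on the plus strand at chr19:37697558-37697807, that of Krt8 on the minus strand at chr15:102004343-102004592 and that of Krt18 on the plus strand at chr15:102027966-102028215. In the Cyp26a1 window the letters AGTTCA, which a retinoic acid receptor binds as a pair, occur 2 times, both as their reverse complement TGAACT, starting at -32 and -21 from the transcription start, so that 5 bases separate them. A pair of these words in the same orientation and 5 bases apart was found in 1 of 31 member genes with a promoter and in 7 of 27025 genes (0.0259%). Only these exact letters were searched, so this is not the share of genes with receptor sites in general. Cyp26a1 was a known target beforehand, so its match is a description and not support. The same window held the T-box letters AGGTGT at -202 and -183 and the SMAD letters CAGACA at -11. The Krt8 window held the GATA letters AGATAA, the RBPJ letters GTGGGAA and the E-box letters CACCTG at -239, -135 and -111. The Krt18 window held the SMAD letters at -235 and the E-box letters at -214.

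The time course libraries had an implied depth of about 7700000 to 12700000 reads, and the member with the fewest reads, Pyy, had about 74.9, 57.2 and 11.4 of them at day 6 (scrambled, then hairpin A, then hairpin B). A value of 3 reads on a transcript of 1 kb corresponded to 0.235 to 0.389 FPKM, and this floor covers counting error only. The cultures did not progress alike. The summed FPKM of 10 pluripotency markers was between 6465 and 8047 at day 0 in the 3 cultures. By day 3 it had fallen in all of them, to 3760 in the scrambled, 4350 in the hairpin A and 3217 in the hairpin B culture. At day 6 it was 1101 in the scrambled and 1407 in the hairpin A culture, whereas in hairpin B it had risen again to 5201. At day 9 the sums were 825, 957 and 7817, so by this sum the hairpin B library stood with the day 0 libraries. Dppa5a alone made up 5376 of the 7817 and had gone from 1498 at day 3 to 2945 at day 6 in hairpin B. The markers differed in this. At day 9 in hairpin B, Klf4 was at 36.0 FPKM, against 125 to 279 at day 0 in the 3 cultures. Nanog was at 256, against 175 to 205. Pou5f1, which encodes Oct4, was at 276, 337 and 621 FPKM at day 6 in scrambled, hairpin A and hairpin B order. The summed level of 9 cardiomyocyte markers at day 9 was 501 in the scrambled, 88.9 in the hairpin A and 19.8 in the hairpin B culture. In bulk RNA, fewer cells of a type and less RNA per cell cannot be told apart.

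At day 6 the members spanned 5.28 to 634 FPKM in the scrambled culture (median 22.5) and 5.34 to 626 in hairpin A (median 19.7), against medians of 1.19 and 1.12 at day 0. All 41 passed the filter of at least 1 FPKM in at least 2 libraries that defined the 13858 loci tested, and 44 of those loci, left-out symbols included, met the rule (0.318%). The gain of a gene in a culture is defined here as log2 of FPKM + 1 at day 6 over the highest FPKM + 1 of the other 3 days. It had a median of 1.48 in the scrambled culture (1.05 to 2.82) and of 1.55 in hairpin A (1.00 to 3.18), while the median over all loci tested was -0.35 in each. The decline after the peak was incomplete for most members. Day 9 stood at a median of 29.6% of the day 6 FPKM in the scrambled culture, from 7.27% for Pyy to 46.9% for Krt18, and at 28.6% in hairpin A. Before the peak, 9 of 41 members were already at least 2-fold higher at day 3 than at day 0 in the scrambled culture (3.69% of all loci) and 9 in hairpin A (3.23%), and these were the same 9 genes: Rasef, Slc39a8, Podxl, Pkdcc, Amot, Chst1, Tspan7, Krt8 and Krt18. The day 0 values of Slc39a8 in both cultures were flagged as low data.

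**Figure D1:**
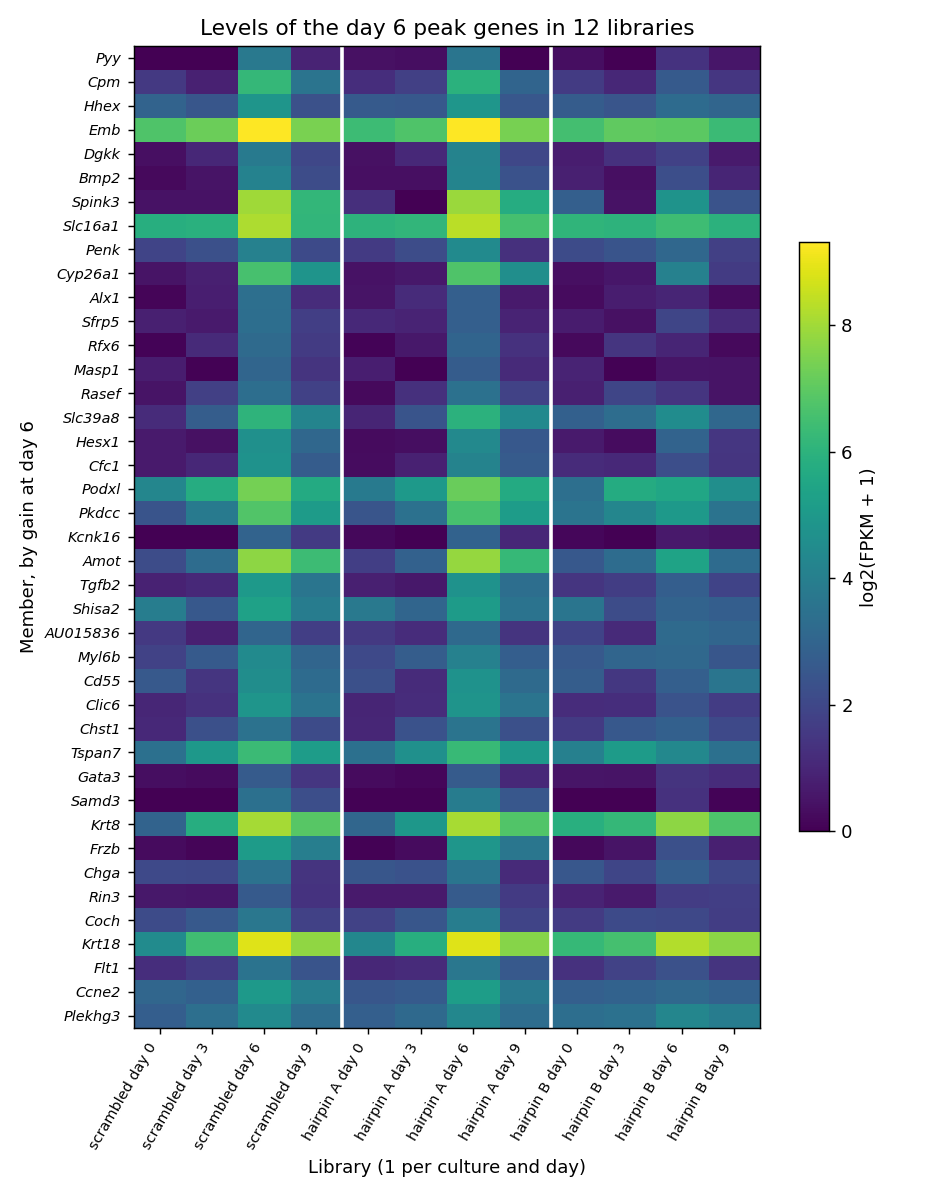
Level of each of the 41 members (rows, by gain) in the 12 time course libraries (columns), as log2(FPKM + 1), with white lines between the cultures. The day 6 columns of the scrambled and hairpin A cultures are the brightest of their cultures in every row, since the rule required it, and the hairpin B day 6 column is dimmer than the scrambled one in 40 of 41 rows.

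Among the members were 5 transcription factors, Hhex, Hesx1, Gata3, Rfx6 and Alx1, with median gains of 1.60 in the scrambled and 1.68 in the hairpin A culture. Hhex is a homeodomain repressor of the anterior endoderm and of liver and vessel precursors. It read 6.76, 4.59, 28.3 and 4.00 FPKM at days 0, 3, 6 and 9 in the scrambled culture, 5.24, 4.92, 28.3 and 4.83 with hairpin A and 5.48, 4.42, 8.58 and 7.19 with hairpin B. Only the day 6 libraries of the first 2 cultures stood out, and the other 10 libraries lay between 4.00 and 8.58 FPKM. Hesx1, a homeodomain repressor of the anterior endoderm and forebrain, read 0.603, 0.336, 24.2 and 7.69 in the scrambled culture, 0.215, 0.269, 19.7 and 4.88 with hairpin A and 0.586, 0.251, 6.76 and 1.76 with hairpin B. Unlike Hhex, it was below 1 FPKM in all 6 libraries of days 0 and 3. In hairpin B both genes had their highest value at day 6. Rfx6, a winged helix factor of gut endoderm and pancreatic islets, read 0.0774, 1.15, 8.33 and 2.07, then 0.0653, 0.523, 6.93 and 1.50 and then 0.176, 1.74, 0.968 and 0.181 in the same order. In hairpin B its day 6 value lay below its day 3 value. Alx1, a factor of craniofacial mesenchyme, was at 9.43, 6.07 and 0.940 FPKM at day 6 in scrambled, hairpin A and hairpin B order, and Gata3, a zinc finger factor of trophoblast and T cells, at 5.38, 5.34 and 1.61. Both were below 2 FPKM in each of the other 9 libraries.

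Signals, receptors and antagonists made up 10 members, with Cyp26a1, Amot and Pkdcc counted among them. Of ligands there were Bmp2, a bone morphogenetic protein, and Tgfb2, of the TGF-beta family. Bmp2 read 0.174, 0.406, 16.6 and 3.49 FPKM at days 0, 3, 6 and 9 in the scrambled culture, 0.304, 0.289, 17.3 and 4.08 with hairpin A and 0.743, 0.303, 3.76 and 0.957 with hairpin B. Tgfb2 read 0.852, 1.09, 30.8 and 11.2 in the scrambled culture, 0.776, 0.517, 25.7 and 9.38 with hairpin A and 1.73, 2.21, 5.93 and 2.70 with hairpin B. Both ligands were low at days 0 and 3 and highest at day 6 in all 3 cultures, with hairpin B the lowest of the day 6 libraries. Cfc1, which encodes the Nodal co-receptor Cryptic, was at 25.8, 17.0 and 3.68 FPKM at day 6 in the same order. Flt1, the VEGF receptor 1, was at 10.6, 11.8 and 3.93.

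The secreted Wnt antagonists Frzb and Sfrp5 were both members. Frzb read 0.207, 0.0863, 33.5 and 14.8 FPKM over the 4 days in the scrambled culture, 0.0369, 0.215, 28.4 and 11.7 with hairpin A and 0.144, 0.402, 3.88 and 0.762 with hairpin B, and was thus close to 0 in every library of days 0 and 3. Sfrp5 was lower, at 9.33, 6.01 and 2.81 FPKM at day 6 in the 3 cultures. Shisa2, which holds Frizzled and FGF receptors back in the endoplasmic reticulum, differed from both in already having been present at day 0. It read 14.4, 4.84, 39.6 and 14.1 in the scrambled culture, 12.8, 7.15, 33.4 and 10.7 with hairpin A and 11.4, 3.47, 6.79 and 5.95 with hairpin B. In hairpin B its day 0 value was the highest of the 4 days.

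Cyp26a1, whose promoter is printed above, read 0.407, 0.743, 94.9 and 27.1 FPKM at days 0, 3, 6 and 9 in the scrambled culture, 0.381, 0.529, 105 and 23.1 with hairpin A and 0.297, 0.494, 15.9 and 2.04 with hairpin B. All 6 libraries of days 0 and 3 were below 1 FPKM. At 2.47 its gain in hairpin B was the largest of the 41 members in that culture and exceeded its gains of 1.77 and 2.14 in the other cultures, although its day 6 level there was lower. Amot, which encodes angiomotin, a binder of YAP at cell junctions, had the same order of gains. It read 3.44, 8.74, 211 and 81.6 in the scrambled culture, 2.29, 6.34, 230.0 and 73.6 with hairpin A and 4.84, 8.79, 41.7 and 8.66 with hairpin B, with gains of 1.36, 1.63 and 2.12. Pkdcc, a secreted tyrosine kinase, was at 109, 95.5 and 30.9 FPKM at day 6 and at 33.9, 34.3 and 10.8 at day 9.

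Secreted peptides and proteins gave 6 members, among them the gene with the largest gain. Pyy encodes the gut hormone peptide YY and lies on chromosome 11 at 101967991 to 101969090 (mm9). It read 0, 0, 12.5 and 0.911 FPKM at days 0, 3, 6 and 9 in the scrambled culture, 0.340, 0.283, 11.1 and 0 with hairpin A and 0.265, 0, 1.56 and 0.484 with hairpin B. It was below 1 FPKM in all 9 libraries outside day 6. Spink3, a serine protease inhibitor of gut and pancreas, read 0.367, 0.357, 252 and 69.9 in the scrambled culture, 1.37, 0, 239 and 53.2 with hairpin A and 6.06, 0.356, 26.7 and 4.24 with hairpin B. Its day 9 values still exceeded those of days 0 and 3 in the first 2 cultures, and at day 0 hairpin B stood above both other cultures. Penk, the precursor of the enkephalins, read 2.72, 3.88, 15.9 and 3.26 in the scrambled culture, 1.99, 3.52, 20.9 and 1.45 with hairpin A and 3.42, 4.38, 7.63 and 2.36 with hairpin B. Chga, the secretory granule protein chromogranin A, was at 10.4, 11.3 and 5.86 at day 6 in the 3 cultures, and Coch, the matrix protein cochlin, at 11.9, 14.5 and 3.05. Masp1, a protease of the lectin complement pathway, was at 7.21, 5.50 and 0.452, and in hairpin B its day 6 value was below its day 0 value.

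Epithelial and cell surface genes included the highest members. Emb encodes embigin, which accompanies monocarboxylate transporters to the cell surface, and lies on chromosome 13 at 118009380 to 118063222 (mm9). It read 106, 147, 634 and 170.2 FPKM at days 0, 3, 6 and 9 in the scrambled culture, 82.7, 107, 626 and 167 with hairpin A and 92.2, 129.5, 125 and 80.2 with hairpin B. In hairpin B the day 6 level was level with day 3 and within the range of the day 0 and day 3 libraries of all cultures. Slc16a1 encodes MCT1, a lactate and pyruvate carrier that embigin can accompany. It read 56.4, 58.8, 287 and 69.0 in the scrambled culture, 63.5, 68.6, 327 and 93.7 with hairpin A and 67.3, 64.4, 85.3 and 62.7 with hairpin B. Its day 6 value in hairpin B was above every library of days 0 and 3, unlike that of Emb, and below the day 6 values of both other cultures. Both genes were well expressed in the stem cells, so their day 6 level stood on a high base.

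Krt8 and Krt18 encode the paired keratins of simple epithelia. Krt8 read 6.74, 54.1, 263 and 119 FPKM over the 4 days in the scrambled culture, 7.42, 29.2, 274 and 109.5 with hairpin A and 57.1, 72.3, 210.0 and 103 with hairpin B. Krt18 read 21.5, 86.3, 461 and 216, then 18.9, 56.5, 462 and 198 and then 75.2, 94.2, 303 and 205 in the same order. In all 3 cultures both were higher at day 3 than at day 0 and higher again at day 6. As a ratio, hairpin B differed from the other cultures more at day 0 than at day 6. In FPKM the gap was smaller at day 0. Podxl, an apical sialomucin, read 18.5, 53.3, 165 and 51.2 in the scrambled culture, 12.9, 32.2, 144 and 51.3 with hairpin A and 9.50, 51.5, 44.6 and 23.3 with hairpin B. Cpm, carboxypeptidase M on chromosome 10 at 117066556 to 117124408 (mm9), read 1.93, 0.830, 72.4 and 11.1, then 1.35, 2.40, 61.2 and 6.96 and then 2.10, 1.06, 5.20 and 1.74. It had the second largest gain, and its day 6 level in hairpin B was below the day 9 level of the scrambled and hairpin A cultures. The tetraspanin Tspan7 was at 80.8, 77.1 and 19.5 FPKM at day 6, and Cd55, decay accelerating factor, at 22.5, 26.1 and 6.07.

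**Figure D2:**
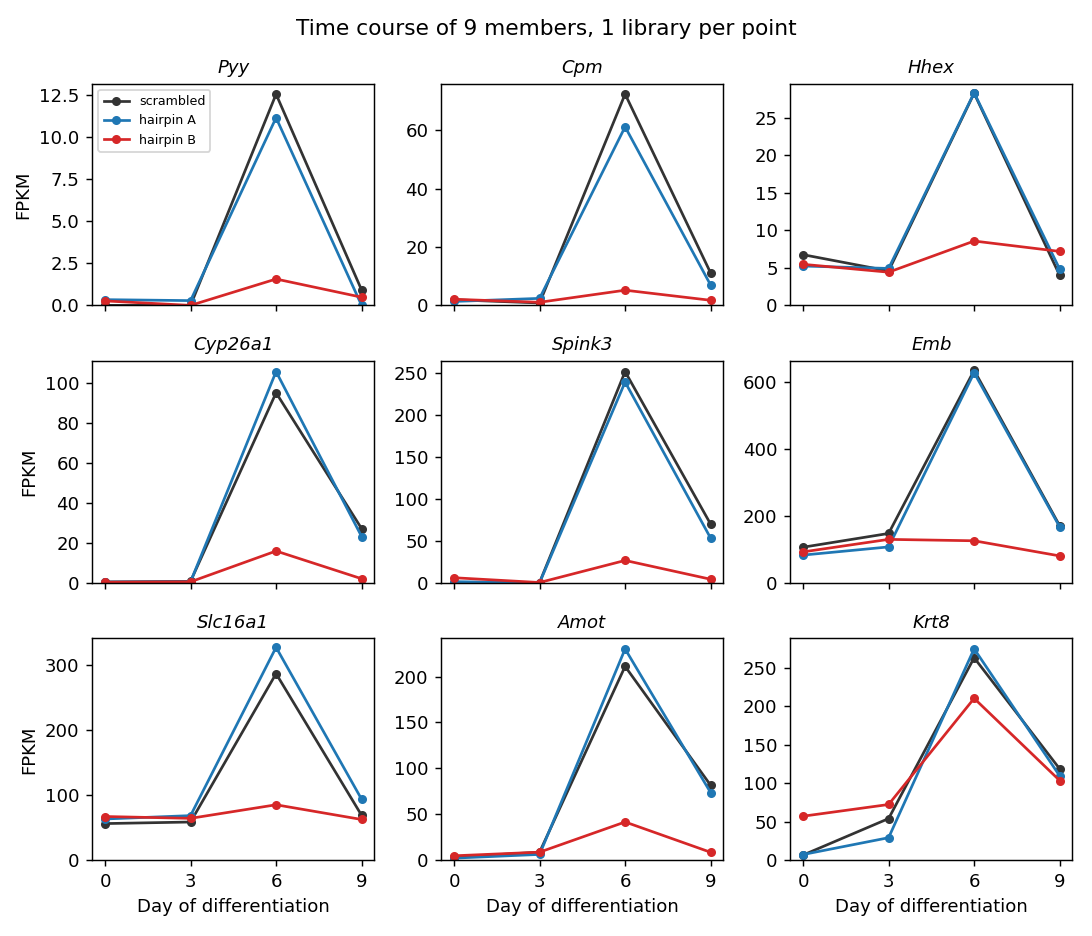
FPKM (linear axis from 0) of 9 members against the day of differentiation, with 1 library per point and 1 line per culture. The scrambled and hairpin A lines nearly coincide, whereas the hairpin B line lies well below them at day 6 for all genes but Krt8, which reached 210.0 FPKM.

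Of the remaining transport and metabolism genes, Slc39a8, the zinc and manganese carrier ZIP8, read 1.19, 5.73, 64.7 and 17.3 FPKM over the 4 days in the scrambled culture, 0.951, 4.28, 62.4 and 20.6 with hairpin A and 6.31, 9.14, 22.2 and 7.56 with hairpin B. It was highest at day 6 in all 3 cultures. Dgkk, a diacylglycerol kinase on the X chromosome, was at 13.4, 17.1 and 2.51 FPKM at day 6 in the same order of cultures. The potassium channel gene Kcnk16 was at 6.88, 6.65 and 0.569 and, outside day 6, between 0 and 1.99. Clic6, of the chloride intracellular channel family, was at 28.2, 27.1 and 4.19, and Chst1, a keratan sulfate sulfotransferase, at 10.4, 10.9 and 6.17.

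A last group of 7 members had intracellular or little known products. Ccne2 encodes cyclin E2, which drives entry into S phase, and read 7.51, 6.18, 31.3 and 14.6 FPKM in the scrambled culture, 4.69, 5.17, 35.2 and 12.2 with hairpin A and 6.00, 6.58, 7.85 and 6.35 with hairpin B. Rasef, a Rab GTPase with EF hands, read 0.419, 2.40, 9.32 and 2.50, then 0.181, 1.44, 10.1 and 2.60 and then 0.752, 2.83, 1.70 and 0.416, and its hairpin B maximum was at day 3. AU015836, an X-linked transcript, read 1.92, 0.783, 7.18 and 2.27, then 1.90, 1.25, 8.14 and 1.67 and then 2.68, 1.17, 8.22 and 7.15. It was the single member whose day 6 level in hairpin B was above the scrambled level, and its day 9 level in hairpin B stayed near that of day 6. Samd3, a sterile alpha motif protein, was at 9.75, 14.1 and 1.52 FPKM at day 6 and at most 0.0500 in the libraries of days 0 and 3. Myl6b, a myosin light chain, was at 21.1, 15.9 and 7.91, Rin3, a Rab5 exchange factor, at 5.28, 5.42 and 2.11 and Plekhg3, a guanine nucleotide exchange factor, at 21.2, 18.9 and 18.3.

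Several loci lay close to the 2-fold limit. Just inside were Plekhg3 with a smaller ratio over both cultures of 2.00, Ccne2 with 2.07, Flt1 with 2.08, Krt18 with 2.13 and Coch with 2.14. Just outside were Pls3 with 1.98, Tmprss2 with 1.96, Mum1l1 with 1.92, Slc2a1 with 1.91 and the endoderm factor Gata6 with 1.89. The list had 95 genes with a ratio of 1.5 and 14 with a ratio of 3. The scrambled culture alone held 66 such loci and hairpin A alone 64, left-out symbols aside, so the 41 shared ones were 62.1% and 64.1% of these lists.

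The hairpin B libraries played no part in choosing the genes. There, 10 of 41 members were at least 2-fold above the other 3 days at day 6, against 0.274% of all loci tested, and 7 also reached 5 FPKM, against 0.173%. These 7 were Cpm, Spink3, Cyp26a1, Slc39a8, Hesx1, Amot and Krt8. For 31 of 41 members, day 6 was the highest of the 4 days in hairpin B, compared with 21.2% of all loci. The median gain was 0.35 in hairpin B, with a range from -0.81 for Cd55 to 2.47 for Cyp26a1, and the median over all loci was -0.21. By role, the signals and antagonists, counted with Cyp26a1, Amot and Pkdcc, had the largest median gain in hairpin B (0.86, 4 of 10 at least 2-fold). The epithelial and surface genes had the smallest (-0.05, 2 of 7). In level, however, the signal group was furthest below the scrambled culture at day 6 in hairpin B, with a median log2 difference of -2.26. These counts rest on 1 library per day, so no test was possible.

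**Figure D3:**
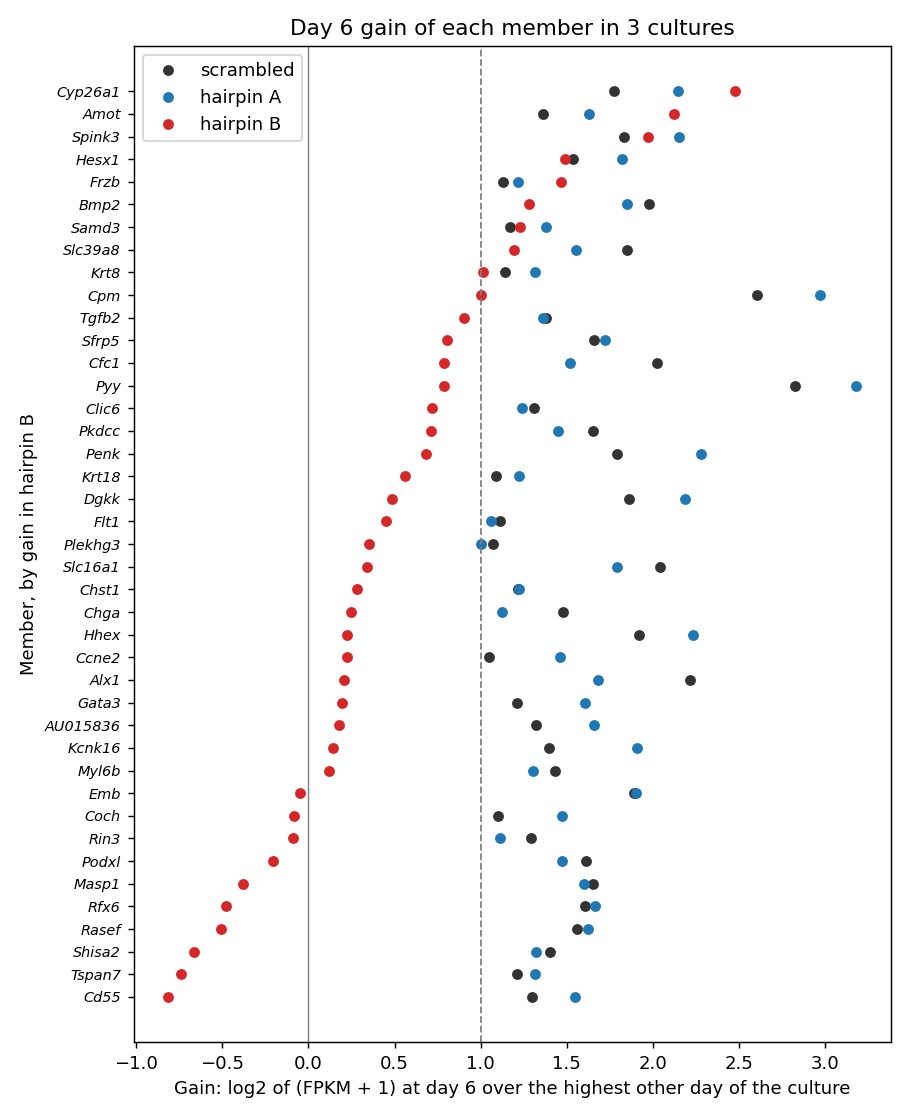
Gain of each member (log2 of FPKM + 1 at day 6 over the highest other day) in each culture, ordered by the hairpin B value, with a dashed line at the 2-fold limit. The scrambled and hairpin A points lie right of the limit because the rule required it, and 10 of the 41 hairpin B points do.

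Set side by side at day 6, hairpin A and scrambled differed little. None of the 41 members was 2-fold higher (0.397% of all loci) or 2-fold lower (0.671%) in hairpin A, the median log2 difference was -0.02, and the range was -0.57 for Cfc1 to 0.49 for Samd3. Since the rule asked for a high day 6 value in both of these libraries, that closeness is partly built in. In hairpin B, 34 of 41 members were at least 2-fold lower than in the scrambled culture (5.83% of all loci) and 0 were 2-fold higher (4.68%). The median log2 difference was -1.87, against -0.05 over all loci. The scrambled library is common to both comparisons, and its day 6 value had been selected to be high.

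The members with the lowest ratio of hairpin B to the mean of the other cultures at day 6 were Cpm, Spink3, Frzb, Cyp26a1 and Clic6, at -3.45, -3.16, -2.71, -2.58 and -2.46 on the log2(FPKM + 1) scale. At the other end were AU015836 (0.09), Plekhg3 (-0.13), Krt8 (-0.35), Krt18 (-0.61) and Chst1 (-0.70). Of the Wnt antagonists, Frzb was thus among the members furthest below the other cultures, whereas Sfrp5 was at -1.16. The keratins were among the members nearest to the other cultures. At day 9, 23 members were at least 2-fold lower in hairpin B than in the scrambled culture (13.3% of all loci), and 1, AU015836, was 2-fold higher (9.76%). Pluripotency markers were high in the same hairpin B libraries, as given above, and their part in these differences was not tested. At day 3, 0 members were 2-fold higher (0.13%) and 0 were 2-fold lower (0.245%) in hairpin B.

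Already at day 0, before differentiation, 5 of 41 members were at least 2-fold higher in hairpin B than in each of the other cultures, against 1.15% of all loci. They were Krt8, Krt18, Spink3, Slc39a8 and Pkdcc. Krt8 was at 57.1 FPKM in hairpin B, 6.74 in the scrambled culture and 7.42 in hairpin A. Krt18 was at 75.2, 21.5 and 18.9 in that order, Slc39a8 at 6.31, 1.19 and 0.951, and Pkdcc at 10.9, 4.35 and 4.46. The scrambled and hairpin A values of Slc39a8 were flagged as low data, so its ratio is uncertain. In all, 27 members were highest in hairpin B at day 0 (39.5% of all loci), 5 in hairpin A (30.3%) and 9 in the scrambled culture (29.9%). The rule asked for a day 0 value well below day 6 in the scrambled and hairpin A libraries, but not in hairpin B. An excess of hairpin B at day 0 is thus partly built in.

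Genes with related roles that are not members were tested for a day effect with limma on log2(FPKM + 1) over the 12 libraries, with p-values adjusted by Benjamini-Hochberg over all 13858 loci. The 3 cultures served as the replicates of each day although their hairpins differ, so the spread holds the differences between cultures. The main fit had no culture term, so its SE and p-values leave out the pairing of libraries within a culture. Between days 3 and 6, 3.69% of the loci rose and 3.25% fell. Of 8 definitive endoderm genes tested besides the members Hhex, Pyy and Spink3, 4 rose and 0 fell (6 and 0 at an unadjusted p under 0.05), with a median log2 difference of 2.19 against 0.06 over all loci. The gene lists had been drawn up with earlier results of these data known, so such counts are not independent support. Sox17, a regulator of endoderm, read 0.137, 0.134, 12.3 and 6.64 FPKM over the 4 days in the scrambled culture, 0.240, 0.143, 12.8 and 7.57 with hairpin A and 0.160, 0.0799, 2.42 and 0.463 with hairpin B. Its log2 difference between days 3 and 6 was 2.93 ± 0.65 (SE, limma adjusted p = 0.025). Gata6, which lay just outside the peak rule, rose by 2.36 ± 0.50 (limma adjusted p = 0.022). Gata4 rose by 2.11 ± 0.54 (limma adjusted p = 0.041) and the chemokine receptor gene Cxcr4 by 3.55 ± 0.91 (limma adjusted p = 0.042). Each of these 4 genes was highest at day 6 in hairpin B, at a level below both other cultures. Foxa3 was at 2.68, 2.92 and 1.34 FPKM at day 6 in the 3 cultures and did not pass the test (log2 difference 0.31, limma adjusted p = 0.35).

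Yolk sac endoderm, a tissue that also expresses Sox17, Gata4, Gata6 and Hhex, had its own markers at the same step. The summed FPKM of 7 such markers went from 1.70 at day 3 to 15.8 at day 6 and 37.2 at day 9 in the scrambled culture, from 1.65 to 12.8 and 22.0 in hairpin A and from 1.39 to 2.33 and 3.05 in hairpin B. Of the 7, 1 rose and 0 fell between days 3 and 6 by limma (2 and 0 at an unadjusted p under 0.05), with a median log2 difference of 0.76. Without hairpin B 6 rose and 0 fell, in a fit that called 28.3% of all loci higher and 22.0% lower. The gene that rose in the fit of all 3 cultures was Apoa1, an apolipoprotein (1.88 ± 0.45, limma adjusted p = 0.034). Afp, the fetal serum protein alpha-fetoprotein, was at 1.56, 1.98 and 0 FPKM at day 6 in the 3 cultures and was listed at 0 in the day 3 libraries. The part of yolk sac endoderm in the levels of the endoderm genes and of the members was not tested.

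After day 6, 0 of the 8 definitive endoderm genes rose and 0 fell by the same limma test (0 and 2 at an unadjusted p under 0.05), with a median log2 difference of -0.79. The members Hhex, Pyy and Spink3, chosen for their drop after day 6, had been left out. The 8 genes were thus selected against such a drop. Over all loci the test called 0.144% higher and 0.216% lower at day 9. Without the hairpin B culture, 7 of the 8 rose up to day 6 and 0 fell in the limma fit (28.3% and 22.0% of all loci, 7 and 0 at an unadjusted p under 0.05), and 1 rose and 5 fell after it (14.4% and 12.4%). The gene that rose after day 6 in that fit was Foxa1, a forkhead factor of endoderm, which read 0.888, 0.393, 10.3 and 24.3 FPKM in the scrambled culture, 0.706, 0.476, 9.72 and 23.2 with hairpin A and 0.680, 0.366, 1.52 and 1.17 with hairpin B. Cxcr4 was at 40.9 FPKM at day 6 and 34.9 at day 9 in the scrambled culture, and in hairpin A it was higher at day 9 than at day 6. It too lacked the drop by which the members had been chosen, and genes with the full peak had been taken out as members. Leaving out the scrambled or the hairpin A culture instead left almost no locus past the adjusted limma threshold. Without the scrambled culture, 5 of the 8 rose up to day 6 and 0 fell at an unadjusted p under 0.05 by limma (658 and 578 of 13858 loci). Without hairpin A, 4 rose and 0 fell (650 and 560 loci). The adjusted calls thus depended on which cultures were kept.

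Of 10 node and axial mesoderm genes tested besides the member Cfc1, 2 rose and 0 fell between days 3 and 6 by limma (6 and 1 at an unadjusted p under 0.05). These were Nog, a BMP antagonist (1.82 ± 0.29, limma adjusted p = 0.0067), and Dkk1, a Wnt antagonist (4.29 ± 1.03, limma adjusted p = 0.034). With culture as a block, 4 rose and 1 fell in a limma fit that also called more of all loci in both directions. Without hairpin B, 7 rose and 2 fell (28.3% and 22.0% of all loci). Dkk1 read 0.395, 0.115, 39.6 and 44.5 FPKM over the 4 days in the scrambled culture, 0.0986, 0, 34.9 and 48.2 with hairpin A and 0.192, 0, 4.72 and 1.44 with hairpin B. Unlike the member Frzb, Dkk1 stayed at its day 6 level or above at day 9 in the scrambled and hairpin A cultures. Lefty1, a Nodal antagonist, was at 21.2, 31.0 and 115 FPKM at day 6 (log2 difference -2.46, limma adjusted p = 0.067, 0.021 with culture as a block), and Foxj1, a regulator of motile cilia, at 3.59, 5.53 and 3.04 (0.61, limma adjusted p = 0.10, 0.049 with culture as a block). After day 6, 0 of the 10 genes rose and 0 fell (0 and 1 at an unadjusted p under 0.05 by limma), with Cfc1 left out because it had the peak. Of 12 further tailbud genes tested beside Cyp26a1, 0 rose and 1 fell by limma (0 and 2 at an unadjusted p under 0.05). Of 17 further lateral mesoderm genes tested beside Bmp2, 2 rose and 0 fell by limma (10 and 0 at an unadjusted p under 0.05). With culture as a block 6 of those 17 rose in the limma fit, which again called more of all loci. Without hairpin B, 4 of the 12 tailbud genes rose and 4 fell, and 14 of the 17 lateral mesoderm genes rose and 0 fell by limma, in a fit that called 28.3% of all loci higher and 22.0% lower.

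Members also lay near each other in the genome. Within 500 kb of another member were 6 of 41 (14.6%), whereas 2.11% of all loci of at least 300 bp lay that near to a member. Krt8 and Krt18 are 23.9 kb apart on chromosome 15 (mm9, 101827142 to 101834773 and 101858647 to 101862457) with 0 loci between them, and they are read in opposite directions away from each other. Hhex (37509331 to 37515221) and Cyp26a1 (37772298 to 37776026) are 257 kb apart on chromosome 19. Between them lie Exoc6 and Cyp26c1, whose product also breaks down retinoic acid. Cyp26c1 was at 5.88, 3.88 and 1.42 FPKM at day 6 and 6.22, 5.08 and 1.16 at day 9 (scrambled, then hairpin A, then hairpin B), and it did not have the day 6 peak of Cyp26a1. Rin3 and Chga are 164 kb apart on chromosome 12, with Lgmn and Golga5 between them. In the scrambled and hairpin A cultures, the gains of all 4 loci lying between members were at or below 0.

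A promoter window was given for 31 of 41 members. It had a median GC content of 61.6%, against 52.4% for 27025 genes, and a median observed over expected CpG ratio of 0.634, against 0.379. Short motifs were counted on both strands in the 250 bases before the start. The T-box letters AGGTGT were in 6 of 31 windows (19.4%, 13.6% of all genes), the GATA letters AGATAA in 5 (16.1%, 11.4%), the E-box letters CACCTG in 7 (22.6%, 19.4%) and the SMAD letters CAGACA in 7 (22.6%, 19.3%). The RBPJ letters GTGGGAA were in 3 (9.68%, 6.18%), the TCF/LEF letters CTTTGAT in 1 (3.23%, 3.72%) and the CDX letters TTTATGG in 0 (2.83% of all genes). The TATA box letters TATAAA were in 2 (6.45%, 14.3%), the forkhead letters TAAACA in 1 (3.23%, 13.5%) and the receptor letters AGTTCA in 2 (6.45%, 13.4%). None of these shares was tested.

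The discovery libraries played no part in the choice, and some of their groups held more than 1 library. The members were thus tested there with edgeR's quasi-likelihood test on rounded expected counts, adjusted by Benjamini-Hochberg over 18484 genes. Totals ran from 7536503 to 23662593 expected counts per library. Of the members, 40 had 1 entry and 36 passed the filter of at least 1 CPM (counts scaled to library size, with TMM) in at least 1 library; Cfc1, Kcnk16, Pyy and Samd3 did not. AU015836 had more than 1 entry and is uncertain. Nanog, a pluripotency factor, was at 210 to 290.0 CPM in the mESC libraries, 299.9 in miPS, 0.419 in MEF and 0.263 and 0.868 in the partially reprogrammed lines that carry Oct4 by retrovirus and had Pou5f1 at 5764 and 5830 CPM. The summed level of 7 fibroblast markers was 62871 CPM in MEF. It was 472 to 650 in the 4 mESC libraries and 621 in miPS, which were grown on feeders, and 55.7 and 2.36 in the feeder-free partially reprogrammed lines. The part of feeder RNA in the mESC values was not tested. The lone MEF library was assumed to vary like the replicated groups, and the labels do not state whether replicates were separate cultures.

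In MEF against mESC, 8 of 36 members were higher (14.5% of all genes) and 7 lower (12.1%), with a median log2 difference of -1.10 against -0.23 over all genes. The lower ones were Krt8, Krt18, Chga, Slc16a1, Emb, Shisa2 and Clic6, and the higher ones Rin3, Frzb, Plekhg3, Masp1, Gata3, Tgfb2, Amot and Flt1. Krt8 was at 60.4 and 48.1 CPM in E14, 525 and 170.4 in v6.5, 19.5 in miPS, 4.48 and 8.44 in lines 11.3 and 11.5 and 1.12 in MEF. Its log2 difference was -6.93 ± 1.04 (SE, edgeR adjusted p = 0.0067). Even among embryonic stem cells the v6.5 libraries were above the E14 libraries, and MEF was below all of them. Krt18 was at 45.2 and 37.9 CPM in E14, 347 and 194 in v6.5, 13.2 in miPS, 0 and 0 in lines 11.3 and 11.5 and 7.41 in MEF, and its log2 difference was -3.84 ± 0.56 (edgeR adjusted p = 0.0088).

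Emb was at 122 and 168 CPM in E14, 78.6 and 213 in v6.5, 57.7 in miPS, 44.2 and 53.1 in lines 11.3 and 11.5 and 12.6 in MEF, so the MEF library was below all others, with a log2 difference of -3.53 ± 0.70 (edgeR adjusted p = 0.016). Slc16a1 was lower by -1.89 ± 0.37 (edgeR adjusted p = 0.015). Chga had 0 counts in MEF and in both partially reprogrammed lines, and its mean over the 4 mESC libraries, 10.96 CPM, was at least 32.0-fold higher than the level of 3 counts in the MEF library. In the opposite direction, Rin3 was at 3.24 and 1.47 CPM in E14, 3.77 and 1.90 in v6.5, 4.99 in miPS, 41.1 and 29.9 in lines 11.3 and 11.5 and 77.3 in MEF. Its log2 difference was 4.92 ± 0.49 (edgeR adjusted p = 0.0022), and the fibroblast and partially reprogrammed libraries did not overlap the mESC libraries. Frzb was higher by 5.22 ± 0.80 (edgeR adjusted p = 0.0070), Plekhg3 by 2.50 ± 0.39 (edgeR adjusted p = 0.0074), Gata3 by 3.82 ± 0.75 (edgeR adjusted p = 0.015) and Masp1 by 2.69 ± 0.52 (edgeR adjusted p = 0.015). When either E14 library was left out, which left 1 library of that line, Masp1, Gata3 and Slc16a1 no longer passed. Fewer members were then called in both directions. With scaling by library size only, 6 members were higher and 8 lower, and the share of higher genes among all calls was 42.1% in place of 54.4%.

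In the partially reprogrammed lines against mESC, 5 members were higher (12.5% of all genes) and 13 lower (14.8%), with a median log2 difference of -0.73 against -0.07. Krt18 had 0 counts in both lines, so that the mESC mean of 156 CPM was at least 392-fold higher than the level of 3 counts in a library. Krt8 was lower by -4.41 ± 0.63 (edgeR adjusted p = 0.0054) and Masp1 by -4.32 ± 0.65 (edgeR adjusted p = 0.0066). Chga and Clic6 also had 0 counts, with mESC means at least 27.5-fold and 7.49-fold higher than that level. The other lower members were Chst1, Dgkk, Amot, Pkdcc, Rfx6, Rasef, Sfrp5 and Emb.

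The 5 higher ones were Rin3, Slc39a8, Hhex, Cd55 and Tgfb2. Slc39a8 was at 1.92 and 1.74 CPM in E14, 10.8 and 16.3 in v6.5, 12.2 in miPS, 341 and 52.5 in lines 11.3 and 11.5 and 1.12 in MEF, with a log2 difference of 5.30 ± 0.70 (edgeR adjusted p = 0.0042). Hhex was at 3.66 and 2.01 CPM in E14, 5.90 and 4.38 in v6.5, 3.53 in miPS, 30.2 and 10.3 in lines 11.3 and 11.5 and 1.54 in MEF, with a log2 difference of 2.41 ± 0.52 (edgeR adjusted p = 0.019). Both partially reprogrammed libraries were above every other library for each of these genes, and line 11.3 was the higher one. Cd55 and Tgfb2 were higher by 2.08 and 2.49 (edgeR adjusted p = 0.029 and 0.044), and for both it was line 11.5 that was high, at 46.9 and 30.9 CPM against 13.3 and 4.74 in line 11.3. Rin3 was higher by 3.79 ± 0.43 (edgeR adjusted p = 0.0028). Hhex, Cd55 and Tgfb2 lost the call when either E14 library was left out, and Tgfb2 also without v6.5 replicate 1. Hhex lost it without line 11.3, and Cd55, Tgfb2 and Masp1 lost it without line 11.5. Fewer members were called lower without line 11.3 or without line 11.5, which each left 1 library in the group. The share of all genes called in those fits was not worked out.

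**Figure D4:**
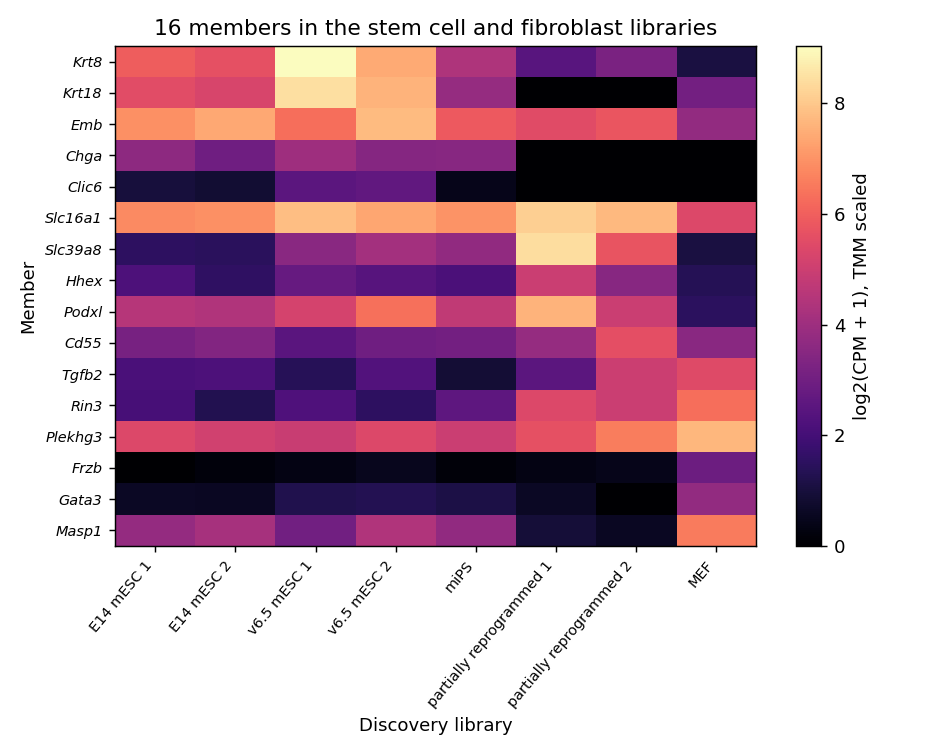
Level of 16 members (rows) in the 8 discovery libraries (columns) as log2(CPM + 1), with CPM scaled by TMM. Krt8, Krt18, Emb and Chga are bright in the embryonic stem cell libraries, Slc39a8 in both partially reprogrammed lines, and Rin3, Plekhg3, Gata3, Frzb and Masp1 brightest in MEF.

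Between the partially reprogrammed lines and MEF, 3 members were higher (4.66% of all genes) and 8 lower (8.64%). The higher ones were Slc16a1 (2.59, edgeR adjusted p = 0.012), Slc39a8 (7.45, edgeR adjusted p = 0.024) and Podxl (5.94, edgeR adjusted p = 0.043), as log2 differences. Podxl was at 22.1 and 20.0 CPM in E14, 36.2 and 80.2 in v6.5, 26.2 in miPS, 194 and 30.3 in lines 11.3 and 11.5 and 1.82 in MEF. Both lines were above MEF, line 11.3 more so, and the log2 difference was 4.05 without line 11.3 and 6.73 without line 11.5, past the edgeR threshold each time. The lower ones were Masp1, Krt18, Chst1, Dgkk, Amot, Pkdcc, Gata3 and Frzb, led by Masp1 (-7.02, edgeR adjusted p = 0.0038), Chst1 (-4.65, edgeR adjusted p = 0.0071) and Amot (-2.75, edgeR adjusted p = 0.0081). Krt18 and Dgkk had 0 counts in both lines, and the MEF library was at least 18.6-fold and 17.2-fold above the level of 3 counts. Without E14 replicate 1 the calls of Slc16a1 and Podxl were lost, and without E14 replicate 2 that of Podxl. Scaling by library size only moved the median log2 difference of all genes from 0.17 to 0.52 and the share of higher genes among all calls from 35.1% to 49.7%, with 4 members higher and 7 lower.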

How the data were processed

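RNA was measured by sequencing of bead-purified mRNA. The time course values are FPKM computed by the authors (Cufflinks 1.3.0 after TopHat 1.14 and Bowtie 0.12.7, build mm9, per the submitters' processing notes), each with a quantification status (other than ok for 4 of 492 member values, 0 of them at day 6 in the scrambled and hairpin A cultures). The flagged values were marked as low data and were all at day 0. They were Slc39a8 in scrambled and hairpin A, Rfx6 in hairpin A and Rin3 in scrambled. The authors also deposited ratio columns, which equalled ratios of FPKM + 1 and were not used further, and 16 columns of bounds were not used. Deposited discovery values are expected counts and TPM from RSEM after TopHat 1.3, also against mm9, per the submitters' processing notes. Expected counts were rounded, and TPM served for checking only.

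The members and gene lists were chosen with earlier results of these data known. Named genes were the 25 members with the largest gain, members of gene lists, the 5 members highest and the 5 lowest in hairpin B relative to the other cultures at day 6, the 5 loci nearest each side of the 2-fold limit, up to 5 called members per direction in each discovery comparison, and up to 4 other genes of a list. Cxcr4, Foxa1, Cyp26c1 and the remaining members were named after their values were seen.

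Tests used R 4.3.3 with limma 3.58.1 (eBayes with a trend, pseudocount 1) for the time course and edgeR 4.0.16 (quasi-likelihood, TMM, 5 groups) for the discovery set, two-sided, with Benjamini-Hochberg adjustment and a threshold of 0.05. DESeq2 1.42.0 was an alternative. Time course depth was inferred from FPKM steps and exon lengths of mm10. Locus starts were shifted to count from 1. Simulated data with 200 changed genes were used to check both tests. Libraries of a culture come from the same cell line, so culture pairs them; the correlation of deviations between days 6 and 9 was 0.693, 0.598 and 0.779 in scrambled, hairpin A and hairpin B order and -0.167 to 0.400 between other days. Alternatives were other pseudocounts, filters, scalings, blocks and leaving out single libraries or cultures.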

Additional observations from a re-analysis of the deposited data

Results flagged for a closer look

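For 6 members, every culture that chose the list was higher at day 6 than at day 3, whereas hairpin B was lower. The log2 difference of FPKM + 1 between days 3 and 6 in hairpin B was -0.74 for the tetraspanin Tspan7, -0.51 for Rasef, -0.48 for the endoderm factor Rfx6, -0.20 for Podxl, -0.083 for cochlin (Coch) and -0.047 for embigin (Emb). Over all loci tested, 45.0% were lower at day 6 than at day 3 in hairpin B. The difference between cultures was not tested, since each culture had 1 library per day and the other cultures had been selected for the opposite direction.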

How the results depend on the processing

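The rule gave 95 members with a ratio of 1.5, 14 with a ratio of 3 and 65 with at least 1 FPKM at day 6. The 2-fold count of 10 members in hairpin B became 17 and 3 with ratios of 1.5 and 3, and the share of all loci at those ratios was not worked out. With culture as a replicate block, 1061 loci rose and 863 fell between days 3 and 6 (512 and 451 without the block), and 27 rose and 50 fell between days 6 and 9 (20 and 30 without it). Among loci of any length, 10 rose and 17 fell after day 6. Leaving out 1 culture gave 0 to 3922 loci that rose and 0 to 3046 that fell up to day 6, and 0 to 1994 and 0 to 1713 after it. Counts of 0 to 2 came without hairpin A in the limma fit (650 and 560 up to day 6 at an unadjusted p under 0.05, 253 and 238 after it) and without the scrambled culture (658 and 578, 248 and 283), and the high counts without hairpin B. The Dkk1 difference between days 6 and 9 of -0.20 was -0.53 without hairpin A and turned to 0.31 without hairpin B, and the cause was not tested.

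In the discovery set, leaving out 1 library gave 3 to 11 members higher and 4 to 11 lower in MEF against mESC, 2 to 7 higher and 6 to 14 lower in the partially reprogrammed lines against mESC, and 1 to 8 higher against MEF. The 5 members higher in the partially reprogrammed lines than in mESC were 8 with DESeq2 and 2 with the replicate block, which lost Hhex, Cd55 and Tgfb2. The 3 higher than in MEF were 6 with DESeq2, 7 with no filter beyond a count above 0 and 5 with the replicate block. E14 and v6.5 libraries of the same number deviated together (correlation 0.379), but only 2 such pairs exist and the labels tie them to nothing shared. Over all results that answer a comparison, 75 alternatives kept their value within 1.5 times and 41, given above singly or as ranges, did not. Shares of all genes called were worked out for the main edgeR fit only, so none stands beside the member counts of its alternatives. Depth limits Pyy, Cfc1, Kcnk16 and Samd3, which were too low to test in the discovery set.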

Other observations

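The members that were high at day 0 in hairpin B also differed between undifferentiated lines. Their excess at day 0 is partly built in by the rule, as given above. For Slc39a8 it was taken over scrambled and hairpin A values flagged as low data. Krt8, Krt18, Slc39a8 and Pkdcc, 4 of the 5, were higher in both v6.5 libraries than in both E14 libraries of the discovery set. Krt8 was at 525 and 170 CPM in v6.5 and at 60.4 and 48.1 in E14, and Slc39a8 was at 10.8 and 16.3 against 1.92 and 1.74. Of the 36 members tested, 17 were higher in both v6.5 libraries (27.5% of all genes) and 2 in both E14 libraries (25.9%). The v6.5 replicates themselves were far apart for Krt8, Pkdcc and Krt18.

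Of 12 tailbud and posterior growth genes that were tested and are not members, 10 were highest in hairpin B at day 0 (39.5% of all loci) and 2 were lowest there, Fgf3 and Fgf4. Among the 10, Nkx1-2 and Cdx2 reached only 0.230 and 0.322 FPKM in hairpin B. Those values are near the level of 3 reads on 1 kb, so the order of the cultures is uncertain for both genes. By at least 2-fold over both other cultures, 2 of the 12 were higher in hairpin B (1.15% of all loci), Sp5 and Gbx2. Sp5, a target of Wnt signalling, was at 15.4 FPKM there, against 1.70 in the scrambled culture and 0.847 in hairpin A. Gbx2 was at 24.7, 7.81 and 9.07 in the same order, and Axin2 at 10.6, 5.96 and 4.90, whereas Fgf4 was at 38.9, 67.3 and 82.6. These genes were named after their values were seen, and with 1 library per culture the difference was not tested.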
